A study of Canis lupus familiaris with 8 samples.

Results

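GFRAL, its ligand gene GDF15, the shared co-receptor gene RET and the related receptor genes GFRA1, GFRA2 and GFRA3 were followed across the dog pituitary and adrenal cortex. These 6 genes of the 24580 in the deposited tables were picked by gene symbol, and all 6 were found, each under 1 gene identifier. They were brought together because GFRAL read lower in the Chinese Field Dog pituitary than in the Beagle pituitary under both exposures, so the values of that contrast chose GFRAL and are given below as a description with no test.

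The RNA came from adults of each breed. The pituitary and adrenal cortex of stressed Chinese Field Dogs, unexposed Chinese Field Dogs, stressed Beagles and unexposed Beagles gave 1 library per combination of breed, tissue and exposure, which makes 8 libraries in all. Stressed animals had chronic stress, whose kind the labels do not give, and the other arm is labelled "non-disposal", read here as unexposed. Nothing says whether a library holds 1 animal or a pool, and the p-values measure only how far these libraries vary. Between tissues that spread holds breed, exposure, animal and technical differences together. In the other fits it is the breed by exposure difference within a tissue, which also holds animal and technical differences. With 1 library per combination, breed and exposure differences cannot be told apart from differences between the animals sampled. The submitters' RNA extraction note names the spleen as its tissue; every other label names the pituitary or the adrenal cortex.

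GFRAL is the receptor of GDF15, a stress-induced hormone of the TGF-beta superfamily. The receptor binds its ligand outside the cell and signals through RET, a tyrosine kinase, and in rodents and primates GFRAL is known for its place in hindbrain neurons of the area postrema and the neighbouring solitary nucleus, where GDF15 lowers appetite. GFRA1, GFRA2 and GFRA3 use the same kinase but bind other ligands, GDNF, neurturin and artemin, and are held to the membrane by a lipid anchor.

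Between 14327357 and 18712035 reads were recovered per library. Intervals below are 95% Clopper-Pearson intervals on ratios of reads, which cover counting error only. Levels are in FPKM, the read count corrected for gene length and depth. Tissue labels were checked against marker genes. The 8 pituitary lineage genes, PITX1 and LHX3 among them, summed to 250 to 391 FPKM in pituitary libraries and to less than 1 FPKM in each adrenal library, and the 7 matched steroid-making and adrenocorticotropin-response genes of the adrenal cortex summed to 45.8 to 72.7 FPKM in pituitary libraries and to 13993 to 18386 FPKM in adrenal ones. The adrenal libraries also held the adrenal medulla, whose 10 marker genes summed to 3443 and 3885 FPKM in the stressed and unexposed Chinese Field Dog and to 5289 and 6285 FPKM in the stressed and unexposed Beagle. The same genes summed to 1371 to 1729 FPKM in pituitary libraries, where CHGB alone read 1014 to 1339 FPKM, against 1283 to 1756 FPKM in adrenal ones. DBH of that list read 239 to 758 FPKM in adrenal libraries and less than 1 FPKM in pituitary ones. The stressed Chinese Field Dog pituitary stood apart. Its 8 forebrain neuron markers, including SLC17A7 and NEUROD6, summed to 651 FPKM, against 2.38 to 4.62 FPKM in the other pituitaries, where TBR1, NEUROD2 and NEUROD6 were listed at 0. The unexposed Beagle pituitary also stood apart, since the growth hormone gene GH1 was listed at 0 there, against 73846 to 81835 FPKM in the other pituitaries. In that library GHRHR read 73.4 FPKM, against 36.6 to 41.1 FPKM in the other pituitaries, and POU1F1 132 FPKM, against 92.5 to 115 FPKM. DRD2, of the same somatotroph and lactotroph list, read 37.6 FPKM there, within the 18.3 to 40.2 FPKM of the others. The reason for the GH1 value was not tested. A limit on every level here is that bulk tissue cannot tell fewer cells of a type from less RNA per cell.

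GFRAL (ENSCAFG00000002331; CanFam3.1 chromosome 12, 22646454 to 22702637) was a pituitary transcript in these samples. It read 4.77 FPKM in the stressed and 2.25 FPKM in the unexposed Chinese Field Dog pituitary, against 22.2 FPKM in the stressed and 18.5 FPKM in the unexposed Beagle pituitary. Those levels rest on 73, 35, 360 and 298 reads in that order. Both Chinese Field Dog libraries lay below both Beagle libraries, an order shown by 22.7% of all genes and fixed for GFRAL by its choice, and within each breed the stressed library was the higher one. In the adrenal cortex GFRAL had 1 read (0.0765 FPKM) in the stressed Beagle and 0 reads in the other 3 libraries.

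**Figure D1:**
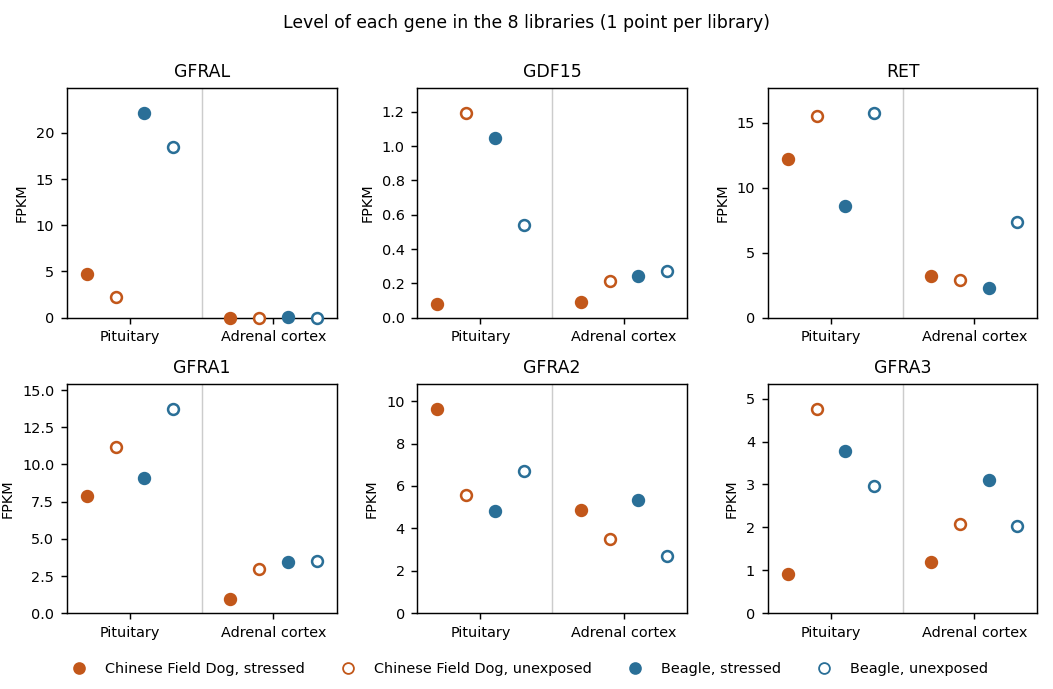
FPKM of the 6 genes in each of the 8 libraries, 1 panel per gene, with filled points for stressed and open points for unexposed animals and 1 point per library; each panel has its own vertical axis. GFRAL reads 2.25 to 22.2 FPKM in the pituitary and at most 0.0765 FPKM in the adrenal cortex, and RET and GFRA1 are higher in every pituitary library than in any adrenal library.

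Between tissues, RET and GFRA1 were called higher in the pituitary. GFRAL was chosen on its pituitary values and passed the filter through the pituitary alone, so its tissue difference is given as a description with no test. On the log2(FPKM + 1) scale GFRAL was higher in the pituitary by 3.23, a size that the added 1 FPKM makes smaller. A count of 0 allows up to 3 reads per library. Against 3 reads in the matched adrenal cortex, the observed pituitary reads of GFRAL were 21.2-fold higher in the stressed Chinese Field Dog. They were 12.1-fold higher in the unexposed Chinese Field Dog and 84.7-fold higher in the unexposed Beagle. These folds leave out the counting error of the pituitary reads. The intervals of the log2 read ratio, which include it, began at 4.07, 3.22 and 6.10 in the same order. For stressed Beagles the comparison was 360 reads against 1, a log2 read ratio of 8.36 (interval 5.87 to 13.67). Without the stressed Chinese Field Dog pituitary the fitted difference was 3.48.

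RET (ENSCAFG00000007076; chromosome 28, 3947231 to 3994225) encodes the kinase that all the receptors here signal through. It read 12.2 FPKM in the stressed and 15.5 FPKM in the unexposed Chinese Field Dog pituitary, and 8.61 and 15.8 FPKM in the stressed and unexposed Beagle pituitary. The adrenal cortex held 3.19 and 2.92 FPKM in the stressed and unexposed Chinese Field Dog, and 2.28 and 7.32 FPKM in the stressed and unexposed Beagle. The lowest pituitary library was thus above the highest adrenal one. The fitted difference between tissues was 1.57 on the log2(FPKM + 1) scale (SE 0.31; limma, Benjamini-Hochberg adjusted p = 0.00222).

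GFRA1 (ENSCAFG00000011782; chromosome 28, 26709644 to 26910185), the receptor for GDNF, read 7.87 and 11.2 FPKM in the stressed and unexposed Chinese Field Dog pituitary, and 9.11 and 13.8 FPKM in the Beagle pituitary in the same order. Adrenal levels were 0.944 FPKM in the stressed and 3.01 FPKM in the unexposed Chinese Field Dog, and 3.44 and 3.53 FPKM in the stressed and unexposed Beagle. All pituitary libraries were above all adrenal ones, and the stressed Chinese Field Dog adrenal cortex was the lowest, on 21 reads. The fitted difference between tissues was 1.67 (SE 0.29; limma adjusted p = 0.00126).

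GFRA2 (ENSCAFG00000010049; chromosome 25, 35437178 to 35521771), the receptor for neurturin, read 9.65 and 5.59 FPKM in the stressed and unexposed Chinese Field Dog pituitary, and 4.80 and 6.71 FPKM in the stressed and unexposed Beagle pituitary. The adrenal cortex held 4.88 and 3.51 FPKM in the stressed and unexposed Chinese Field Dog, and 5.36 and 2.69 FPKM in the stressed and unexposed Beagle. Tissues overlapped, since the stressed Beagle pituitary lay below 2 adrenal libraries. The difference between tissues was 0.58 (SE 0.23; limma adjusted p = 0.0597). FPKM per scaled count varied 1.55-fold between libraries for GFRA2, against 1.07-fold for GFRAL and RET, so its FPKM and read ratios differ in size.

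GFRA3 (ENSCAFG00000001215; chromosome 11, 25881479 to 25898083), the receptor for artemin, read 0.922 FPKM in the stressed and 4.77 FPKM in the unexposed Chinese Field Dog pituitary, and 3.77 and 2.97 FPKM in the stressed and unexposed Beagle pituitary. The adrenal cortex held 1.196 and 2.07 FPKM in the stressed and unexposed Chinese Field Dog, and 3.097 and 2.04 FPKM in the stressed and unexposed Beagle. The stressed Chinese Field Dog was the lowest library in each tissue. The difference between tissues was 0.33 (SE 0.35; limma adjusted p = 0.435).

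GDF15 (ENSCAFG00000014882; chromosome 20, 44634587 to 44636821), the ligand of GFRAL, rested on few reads in both tissues. It read 0.0814 and 1.19 FPKM in the stressed and unexposed Chinese Field Dog pituitary, and 1.05 and 0.539 FPKM in the stressed and unexposed Beagle pituitary, which are 1, 16, 14 and 7 reads in that order. Adrenal levels ran between 0.0937 and 0.272 FPKM, on 1 to 3 reads per library. The stressed Chinese Field Dog library was the lowest in each tissue, on a single read each. GDF15 missed the filter of a mean of at least 1 FPKM, and without the filter the difference between tissues was 0.46 (SE 0.21; limma adjusted p = 0.107).

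With GFRAL set aside, 4 genes passed the filter. Of these, limma called RET and GFRA1 higher in the pituitary, where 29.5% of all 14808 tested genes were called higher, and 0 lower, where 31% of all were. GFRAL, RET and GFRA1 did not overlap between tissues, which held in that direction for 28.5% of all genes tested. GFRAL does not overlap by its choice and by the filter, and nothing about the set is drawn from these counts. In the exact two-sided permutation test over 4 pituitary and 4 adrenal libraries, run on all 6 genes without adjustment, RET and GFRA1 had p = 0.0286, the smallest that this design allows. GFRA2 had an exact permutation p of 0.0857, GDF15 of 0.143 and GFRA3 of 0.457. Within the pituitary, the order of mean FPKM was RET (13.03 ± 3.35, SD over 4 libraries), GFRAL (11.9 ± 9.88), GFRA1 (10.5 ± 2.57), GFRA2 (6.69 ± 2.12), GFRA3 (3.11 ± 1.63) and GDF15 (0.715 ± 0.507). Neighbours in that order overlapped in range, except GFRA2 and GFRA3, whose nearest libraries read 4.80 and 4.77 FPKM. In the adrenal cortex the order was GFRA2 (4.11 ± 1.23), RET (3.93 ± 2.296), GFRA1 (2.73 ± 1.21), GFRA3 (2.10 ± 0.778), GDF15 (0.206 ± 0.0783) and GFRAL (0.0191 ± 0.0382), where the ranges of GFRA3, GDF15 and GFRAL did not meet and those of the genes above them did.

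The breed contrast in the pituitary is the one that chose GFRAL. The log2 read ratio of Chinese Field Dog over Beagle was -2.16 (interval -2.54 to -1.79) in stressed and -3.13 (interval -3.68 to -2.62) in unexposed animals. Among 14722 genes, 33 were at least 2-fold lower in the Chinese Field Dog both with and without stress, 0.224% of them, with GFRAL one of these by choice. The stressed ratio rests on the library with forebrain markers, whose part in it was not tested, and the unexposed ratio does not use that library. The unexposed ratio rests on the Beagle library with GH1 listed at 0, whose part in it was not tested either. The authors' deposited table gives log2 ratios of -2.22 (their p-value 0.0984) and -3.04 (their p-value 0.0685) for the same pairs, with an adjusted value of 0.999 for both.

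**Figure D2:**
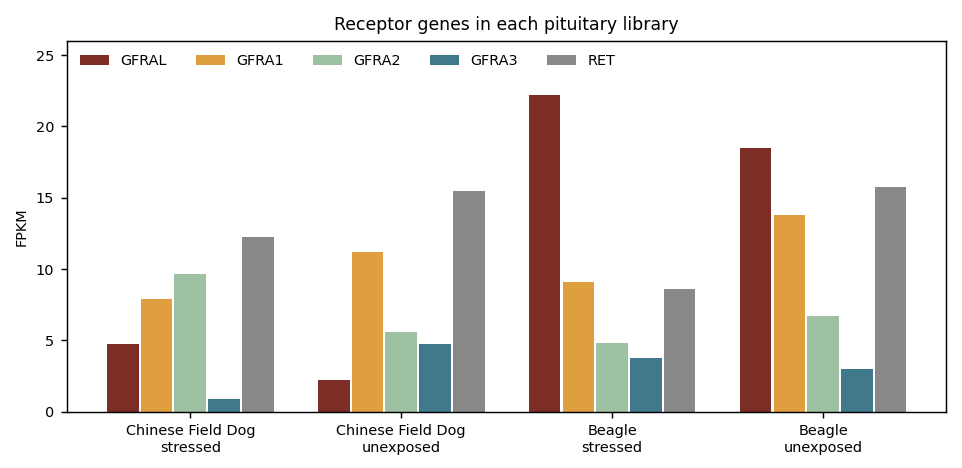
FPKM of the 5 receptor genes in each pituitary library, 1 bar per gene and library with no error bars, since each bar is 1 library. GFRAL is the tallest of the 5 in both Beagle libraries, at 22.2 and 18.5 FPKM. It is the second lowest in the stressed Chinese Field Dog library at 4.77 FPKM, and the lowest in the unexposed one at 2.25 FPKM.

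Set against the other receptor genes per length, the same GFRAL values that chose the gene gave the following shares, as a description. GFRAL made up 20.0% and 9.34% of the summed FPKM of GFRAL and GFRA1 to GFRA4 in the stressed and unexposed Chinese Field Dog pituitary, and 55.3% and 43.6% in the stressed and unexposed Beagle. The ratio of GFRAL to RET was 0.389 and 0.145 in the stressed and unexposed Chinese Field Dog, against 2.57 and 1.17 in the stressed and unexposed Beagle. The sum of GFRA1, GFRA2 and GFRA3 spanned 18.4 and 21.5 FPKM in the Chinese Field Dog and 17.7 and 23.4 FPKM in the Beagle, in the same order, so the breeds overlapped for that sum. GFRA4, the receptor for persephin and no member of the set, read 0.258 to 0.657 FPKM in the pituitary, on 3 to 7 reads.

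Each of the other members overlapped between the breeds in the pituitary. The RET read ratio of Chinese Field Dog over Beagle was log2 0.52 (interval 0.36 to 0.68) in stressed and -0.04 (interval -0.17 to 0.08) in unexposed animals. For GFRA1 it was -0.14 (interval -0.43 to 0.15) in stressed and -0.20 (interval -0.44 to 0.04) in unexposed animals. GFRA2 stood at 0.89 (interval 0.66 to 1.11) and -0.54 (interval -0.80 to -0.29), and GFRA3 at -2.02 (interval -2.63 to -1.45) and 0.69 (interval 0.33 to 1.05), each with the stressed pair first and the unexposed pair second. GFRA2 and GFRA3 thus pointed opposite ways in the 2 exposures. For GDF15, on 1 read against 14, the stressed ratio was -3.66 (interval -9.07 to -0.95), and the unexposed one, on 16 reads against 7, was 1.16 (interval -0.21 to 2.68). Of the 5 members that passed the filter, GFRAL and GFRA3 were at least 2-fold lower on the log2(FPKM + 1) scale in the stressed pair (2.39% of all genes) and GFRAL in the unexposed pair (1.44% of all genes).

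**Figure D3:**
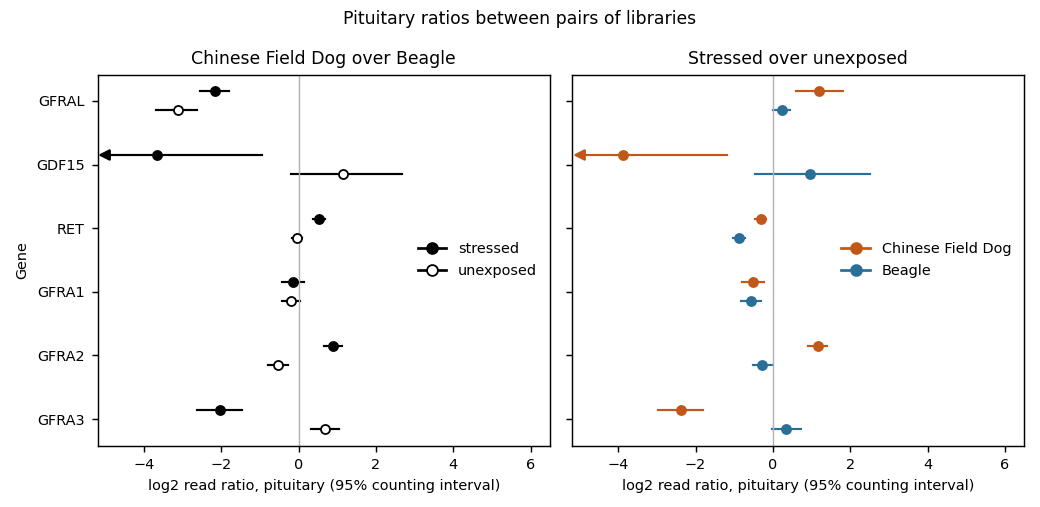
Log2 read ratios between pituitary libraries, 1 row per gene, with 95% counting intervals as bars; the left panel sets Chinese Field Dog over Beagle within each exposure and the right panel stressed over unexposed within each breed. GFRAL lies left of 0 in both breed comparisons, at -2.16 and -3.13, whereas GFRA2 and GFRA3 change side between the exposures; arrows mark intervals that run past the axis.

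The sums of several cell type marker lists differed between the breeds in the pituitary. The 7 matched macrophage genes summed to 245 and 208 FPKM in the stressed and unexposed Chinese Field Dog, and to 110 and 83.7 FPKM in the stressed and unexposed Beagle. The 8 lymphocyte genes summed to 58.9 and 38.3 FPKM in the Chinese Field Dog and to 4.68 and 9.17 FPKM in the Beagle. The 10 genes of glia and posterior lobe summed to 589 and 213 FPKM in the Chinese Field Dog and to 181 and 78.8 FPKM in the Beagle. The 589 FPKM came from the library with forebrain neuron markers, where GFAP read 163 FPKM, against 6.09 to 10.8 FPKM in the other pituitaries. In the unexposed Chinese Field Dog, GFAP at 8.40 FPKM and AQP4 at 0.208 FPKM each lay between the Beagle libraries. Single genes did not all follow their sum. CD79B of the lymphocyte list was highest in the unexposed Beagle pituitary, at 5.30 FPKM, and CD163 and AVP overlapped between the breeds. Macrophage genes also summed higher in the Chinese Field Dog adrenal cortex (544 and 547 FPKM) than in the Beagle one (349 and 309 FPKM). The 6 endothelium genes were lower in the Chinese Field Dog pituitary (77.4 and 78.3 FPKM) than in the Beagle one (82.1 and 99.0 FPKM). Corticotroph and melanotroph genes summed lowest in the stressed Chinese Field Dog pituitary, at 10382 FPKM, against 24147 to 30655 FPKM in the others. That library was lowest for gonadotroph and thyrotroph genes (20362 against 26505 to 33239 FPKM) and pituitary lineage genes (250 against 332 to 391 FPKM). Somatotroph and lactotroph genes summed lowest in the unexposed Beagle, where GH1 was listed at 0. The part of these cells in the GFRAL difference was not tested. The 5 matched area postrema and hindbrain genes summed to 6.31 and 8.997 FPKM in the Chinese Field Dog and 7.21 and 8.13 FPKM in the Beagle.

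Exposure was set against no exposure within the pituitary, with the breeds as replicates of the effect. None of the 5 members tested was called: limma called 1 of 14722 genes (0.00679%), with 647 at an unadjusted p under 0.05. GFRAL had a fitted difference of 0.54 on the log2(FPKM + 1) scale (SE 0.23; limma adjusted p = 0.859), with a read ratio of log2 1.19 (interval 0.59 to 1.81) in the Chinese Field Dog and 0.22 (interval -0.01 to 0.45) in the Beagle. Without the stressed Chinese Field Dog pituitary the fitted value was 0.25 (limma adjusted p = 0.956). RET had -0.56 (SE 0.38) and GFRA1 -0.50 (SE 0.28), both with a limma adjusted p of 0.859, and each was lower in both stressed libraries than in both unexposed ones, an order that 14.7% of all genes showed. The RET read ratio was log2 -0.32 (interval -0.46 to -0.19) in the Chinese Field Dog and -0.88 (interval -1.03 to -0.74) in the Beagle, and the GFRA1 ratio was -0.51 (interval -0.79 to -0.24) and -0.58 (interval -0.83 to -0.32). Both ratios were below 0 in both breeds.

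GFRA2 and GFRA3 had ratios of opposite sign in the breeds. The GFRA2 read ratio of stressed over unexposed pituitary was log2 1.15 (interval 0.91 to 1.39) in the Chinese Field Dog and -0.28 (interval -0.52 to -0.03) in the Beagle. GFRA3 had -2.37 (interval -2.97 to -1.81) in the Chinese Field Dog and 0.34 (interval -0.04 to 0.72) in the Beagle. At 2-fold on the log2(FPKM + 1) scale, GFRA3 was lower with stress in the Chinese Field Dog (1.7% of all genes were), and no member was past 2-fold in the Beagle (2.35% of all genes were, in either direction). By reads, without the added 1 FPKM, GFRAL and GFRA2 were also past 2-fold in the Chinese Field Dog, and higher. The share of all genes past 2-fold by reads was not counted, so nothing about the members follows from this. Fitted over both breeds, GFRA2 had 0.14 (SE 0.31; limma adjusted p = 0.939) and GFRA3 -0.66 (SE 0.52; limma adjusted p = 0.864). The Chinese Field Dog values rest on the library with forebrain neuron markers at 651 FPKM, whose 6 pan-neuronal genes also summed to 1485 FPKM, against 272 to 289 FPKM in the other pituitaries, and the part of these cells in the ratios was not tested. GDF15 stood at log2 -3.87 (interval -9.26 to -1.19) in the Chinese Field Dog, on 1 read against 16, and at 0.95 (interval -0.46 to 2.50) in the Beagle.

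In the adrenal cortex the members differed by breed and exposure mainly through single libraries. RET was highest in the unexposed Beagle, at 7.32 FPKM, against 2.28 to 3.19 FPKM in the other adrenal libraries. Its read ratio of Chinese Field Dog over Beagle was log2 0.44 (interval 0.11 to 0.78) in stressed and -1.28 (interval -1.53 to -1.04) in unexposed animals, and that of stressed over unexposed was 0.03 (interval -0.28 to 0.33) in the Chinese Field Dog and -1.70 (interval -1.99 to -1.42) in the Beagle. The 6 pan-neuronal genes summed to 518 FPKM in the unexposed Beagle and to 159 to 201 FPKM in the other adrenal libraries. Among those others the stressed Beagle had the highest sum, at 201 FPKM, and the lowest RET, at 2.28 FPKM. The part of medulla and nerve in the RET level was not tested.

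**Figure D4:**
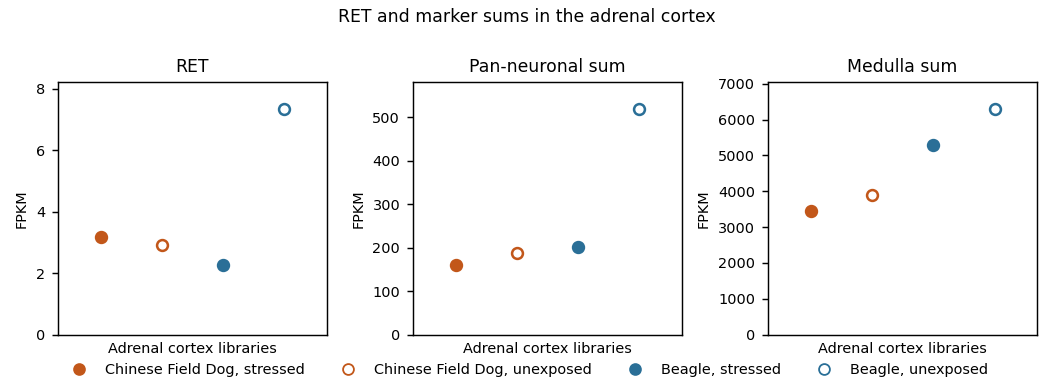
FPKM of RET, and summed FPKM of the 6 pan-neuronal and the 10 adrenal medulla genes, in the 4 adrenal cortex libraries, 1 panel per measure with its own axis and 1 point per library. The unexposed Beagle is the highest library in each panel, with RET at 7.32 FPKM and the pan-neuronal sum at 518 FPKM. The stressed Beagle is the lowest in RET, at 2.28 FPKM, but lies above both Chinese Field Dog libraries in both sums, at 201 and 5289 FPKM.

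GFRA1 was lower in both Chinese Field Dog adrenal libraries than in both Beagle ones, the order of 24.2% of all genes. Its read ratio of Chinese Field Dog over Beagle was log2 -1.81 (interval -2.57 to -1.10) in stressed and -0.40 (interval -0.88 to 0.08) in unexposed animals, and the fitted breed difference was -0.68 (SE 0.28; limma adjusted p = 0.709). GFRA3 had -1.26 (interval -1.86 to -0.69) in stressed and 0.03 (interval -0.47 to 0.53) in unexposed animals, with a fitted -0.44 (SE 0.52; limma adjusted p = 0.865). RET had a fitted -0.37 (SE 0.38; limma adjusted p = 0.847) and GFRA2 0.09 (SE 0.31; limma adjusted p = 0.968). The GFRA2 read ratio of Chinese Field Dog over Beagle was log2 0.02 (interval -0.25 to 0.29) in stressed and 0.65 (interval 0.31 to 0.997) in unexposed animals. None of the 4 members that passed the filter was called for breed, where limma called 7 of 13759 genes (0.0509%) and 977 had an unadjusted p under 0.05. At 2-fold on the log2(FPKM + 1) scale, GFRA1 was lower in the stressed pair (1.33% of all genes were) and RET in the unexposed pair (2.7% of all genes). By reads, where no share of all genes was counted, GFRA3 was also past 2-fold in the stressed pair, and lower.

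In the stress comparison of the adrenal cortex, GFRA2 was higher in both stressed libraries than in both unexposed ones, an order that 16.6% of all genes showed. Its read ratio of stressed over unexposed was log2 0.39 (interval 0.11 to 0.66) in the Chinese Field Dog and 1.02 (interval 0.69 to 1.36) in the Beagle. The fitted difference was 0.58 (SE 0.31). For GFRA1 the ratio was -1.42 (interval -2.19 to -0.70) in the Chinese Field Dog and -0.01 (interval -0.47 to 0.45) in the Beagle. For GFRA3 it was -0.79 (interval -1.41 to -0.20) and 0.49 (interval 0.02 to 0.98). At 2-fold on the log2(FPKM + 1) scale, GFRA1 was lower with stress in the Chinese Field Dog (1.03% of all genes were) and RET in the Beagle (2.45% of all genes were). By reads, where no share of all genes was counted, GFRA2 was also past 2-fold in the Beagle, and higher. Limma called 2 of 13759 genes (0.0145%), 444 had an unadjusted p under 0.05, and none of the 4 members was called, each with an adjusted p of 0.9996.

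Genes around the receptors were read from lists chosen with these data known, and are given by counts. Of the GDNF-family ligands, GDNF read at most 0.0573 FPKM in the pituitary and 0.294 to 1.01 FPKM in the adrenal cortex, the neurturin gene NRTN 0.861 to 2.60 FPKM in the pituitary, and the artemin and persephin genes ARTN and PSPN less than 1 FPKM in every library. Of 4 tested genes of this list of ligands and other receptors, 2 were called higher in the pituitary, NRTN and NCAM1, and 1 lower, SDC3. NCAM1, an alternative GDNF receptor, read 79.1 and 46.4 FPKM in the stressed and unexposed Chinese Field Dog pituitary and 39.6 and 46.1 FPKM in the stressed and unexposed Beagle pituitary, against 1.96 to 10.6 FPKM in the adrenal cortex (log2 difference 3.22; limma adjusted p = 1.73e-04). SDC3, a heparan sulfate proteoglycan that binds GDNF, had a log2 difference of -1.05 (limma adjusted p = 0.00307). Of 23 RET adaptor and signalling genes 11 were called higher and 5 lower in the pituitary. RAP1GAP, which turns off the small GTPase RAP1, was higher by 4.95 (limma adjusted p = 1.47e-06) and GRB7, an adaptor that binds RET, by 2.76 (limma adjusted p = 7.78e-06), whereas the adaptor SHC1 was lower by a log2 of -1.09 (limma adjusted p = 5.6e-05). All of these counts stand beside the 29.5% of all genes called higher and 31% called lower.

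Of 14 integrated stress response genes, which include the factor ATF4 that induces GDF15, 5 were called higher and 4 lower in the pituitary. ATF4 itself read 213 to 247 FPKM in the pituitary and 269 to 363 FPKM in the adrenal cortex, beside GDF15 at no more than 1.19 FPKM. Of 9 other TGF-beta superfamily ligands 3 were called higher and 2 lower. These counts too stand beside the 29.5% of all genes called higher and 31% called lower. Limma called none of the genes of these 4 lists for exposure in either tissue or for breed in the adrenal cortex. In the stress comparison of the pituitary the largest fitted values of the RET adaptors were those of SHC3 (1.68) and DOK6 (1.57), both with a limma adjusted p of 0.859. SHC3 read 22.9 FPKM in the stressed and 2.93 FPKM in the unexposed Chinese Field Dog pituitary, and 3.62 and 1.74 FPKM in the Beagle. DOK6 read 28.1 and 2.81 FPKM in the Chinese Field Dog and 5.10 and 4.31 FPKM in the Beagle, in the same order. Both fitted values thus rest largely on the library with forebrain neuron markers, whose part in them was not tested.

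Genes whose pattern was most like that of GFRAL were named by Pearson correlation of log2(FPKM + 1), as a description with no test, over libraries that share tissues and breeds. Over all 8 libraries and 12508 genes the closest were KIAA1024L (r = 0.989), TRPM8 (0.988), IGF2BP2 (0.985), ARHGAP15 (0.983) and PAPPA2 (0.983). TRPM8, the cold and menthol channel, read 0.759 and 0.585 FPKM in the stressed and unexposed Chinese Field Dog pituitary, and 1.79 and 2.37 FPKM in the stressed and unexposed Beagle pituitary, with at most 1 read in any adrenal library. PAPPA2, a protease that frees insulin-like growth factors from their binding proteins, read 2.23 and 0.989 FPKM in the Chinese Field Dog and 4.22 and 7.12 FPKM in the Beagle pituitary, in the same order. In both genes the Chinese Field Dog libraries were the lower ones, an order favoured by picking them for likeness to GFRAL. Unlike in GFRAL, the unexposed Beagle was the highest. Over the 4 pituitary libraries alone, the closest of 2852 genes that were lower in both Chinese Field Dog libraries were SNORD17 (on 3 to 8 pituitary reads), CCNG2, HBA, TMEM119 and TMEM161B, with r of 0.998 to 0.999.

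**Figure D5:**
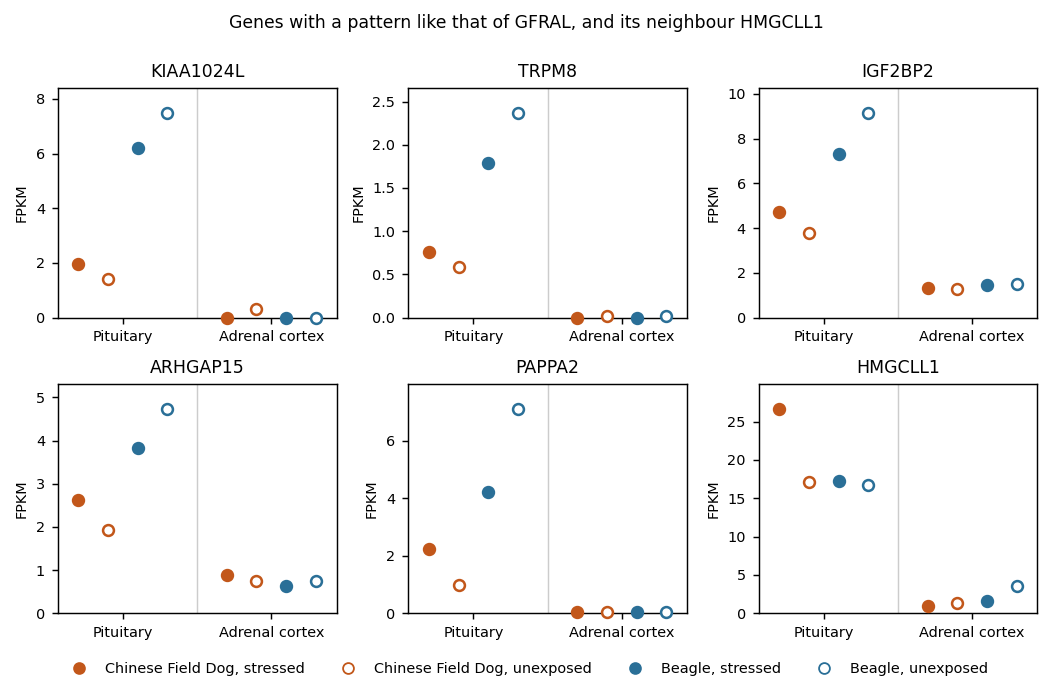
FPKM in the 8 libraries of the 5 genes whose pattern over all libraries was most like that of GFRAL, and of HMGCLL1, the next gene along the chromosome, with 1 point per library and an own axis per panel. In the first 5 panels both Chinese Field Dog pituitaries lie below both Beagle pituitaries, an order favoured by picking these genes for likeness to GFRAL. HMGCLL1 does not follow that order, at 26.7 and 17.2 FPKM in the Chinese Field Dog and 17.2 and 16.7 FPKM in the Beagle pituitary.

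Of the 3 genes on each side of GFRAL on chromosome 12, chosen after their values were seen, FAM83B and COL21A1 were lower in both Chinese Field Dog pituitaries than in both Beagle ones, HCRTR2, HMGCLL1 and BMP5 were not, and a U6 gene had no reads. That order held for 22.7% of all genes with a mean of at least 1 FPKM, a filter that FAM83B and HCRTR2 missed. The order of these neighbours is given as a description, and a part of the locus was not tested. HMGCLL1, a lyase of ketone body synthesis that starts 46.1 kb past the end of GFRAL, read 26.7 and 17.2 FPKM in the stressed and unexposed Chinese Field Dog pituitary, and 17.2 and 16.7 FPKM in the stressed and unexposed Beagle. HCRTR2, an orexin receptor whose end lies 23.1 kb before the start of GFRAL, read 0.379 and 0.139 FPKM in the Chinese Field Dog and 0.104 and 0.0715 FPKM in the Beagle, in the same order, on 2 to 10 reads. FAM83B, which lies 304.3 kb before GFRAL, read 0.265 and 0.306 FPKM in the stressed and unexposed Chinese Field Dog pituitary, and 0.505 and 0.555 FPKM in the stressed and unexposed Beagle, on 31 to 69 reads. COL21A1, a collagen gene 657.8 kb past GFRAL, read 2.62 and 1.94 FPKM in the stressed and unexposed Chinese Field Dog pituitary, and 2.90 and 3.16 FPKM in the stressed and unexposed Beagle, on 92 to 146 reads.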

How the data were processed

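Messenger RNA libraries were aligned with TopHat to CanFam3.1, per the submitters' processing notes; the program that counted reads is not given in the sources used here. The deposited files were 8 tables, each setting a pair of libraries side by side. The authors' FPKM values, corrected for gene length and depth, were the main measure. The authors' scaled counts (a signal, not raw reads) come in whole multiples of 1 step per library, and dividing by the step gave reads, whole within 0.02 for 97.6% to 99.1% of values. Reads are near, not exact, in stressed Chinese Field Dog pituitary and stressed Beagle adrenal cortex, where the step is close to 1. The p-value, adjusted p-value and log2 ratio columns are the authors' own and are quoted once, as deposited.

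Values were log2(FPKM + 1), for genes with a mean of at least 1 FPKM in the tissues compared. Limma 3.58.1 in R 4.3.3, with a mean-dependent prior, was fitted to all 8 libraries on tissue (6 residual degrees of freedom), and on breed and exposure within tissue (6 coefficients, 2 residual degrees of freedom), where breeds serve as replicates of exposure and exposures of breed. P-values were adjusted by Benjamini-Hochberg over all genes with a threshold of 0.05. Single pairs of libraries have no test and were counted at 2-fold. A count of 0 allows up to 3 reads. The fits were tested on simulated data. Alternatives were a pseudocount of 0.1, no filter, median-of-ratios scaling, each library left out, breed and exposure as a block in the tissue fit, and edgeR 4.0.16 and DESeq2 1.42.0 on recovered reads. The 6 genes and all lists were chosen with earlier results of these data known. Named beside them were listed genes with the largest differences or past the test, at most 5 per list and comparison, and the 5 most like GFRAL. The permutation p-values were left unadjusted, although an adjustment over the 6 genes had been planned. No sequence is shown, and coordinates are as the files give them. Transcription factors of RET were compared as well, and that list is not reported here.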

Additional observations from a re-analysis of the deposited data

Results flagged for a closer look

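In the adrenal cortex GFRAL was listed at 0.0765 FPKM in the stressed Beagle and at 0 in the other 3 libraries; the value stood apart from the rest of its group, but it rests on 1 read, and 1 read over 4 libraries can take no other shape.

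Other ratios pointed opposite ways in the 2 groups set side by side, and the difference was tested in none of them, each side being 1 pair of libraries. The GFRA2 log2 read ratio of stressed over unexposed pituitary was 1.15 for Chinese Field Dogs and -0.28 for Beagles. In the adrenal cortex the GFRA3 ratio of stressed over unexposed was -0.79 for Chinese Field Dogs and 0.49 for Beagles. The ratio of Chinese Field Dog over Beagle pituitary was 0.89 in stressed and -0.54 in unexposed animals for GFRA2, and -2.02 in stressed and 0.69 in unexposed animals for GFRA3. The RET ratio of Chinese Field Dog over Beagle adrenal cortex was 0.44 in stressed and -1.28 in unexposed animals.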

How the results depend on the processing

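For the 18 fitted values of members, 239 alternative values were computed. Of these 222 kept their direction and their side of the threshold, 3 passed it newly and 14 changed sign. Each change of sign came from leaving out 1 library, in comparisons where no member was called: without single libraries, the pituitary stress value ran from -0.41 to 0.69 for GFRA2 and from -1.59 to 0.27 for GFRA3, with the sign turned by leaving out either Chinese Field Dog library. The adrenal stress value ran from -0.48 to 0.43 for GFRA3 (sign turned without either Chinese Field Dog library) and from -1.34 to 0.10 for RET (without either Beagle library). The adrenal breed value ran from -0.90 to 0.016 for GFRA3 (without either stressed library), from -1.09 to 0.35 for RET and from -0.11 to 0.29 for GFRA2 (both without either unexposed library). Between tissues, GFRA3 passed the threshold without the stressed Chinese Field Dog pituitary (0.66, limma adjusted p = 0.0359), and GFRA2 without the stressed Beagle pituitary (0.71, limma adjusted p = 0.0409) or the stressed Beagle adrenal cortex (0.70, limma adjusted p = 0.0445). Over the alternatives that kept all libraries, the limma, edgeR or DESeq2 adjusted p between tissues ran from 4.84e-06 to 0.0034 for RET and from 1.12e-06 to 0.00227 for GFRA1, and limma's without single libraries from 0.000278 to 0.00819 for RET and from 0.000589 to 0.00489 for GFRA1. Leaving out 1 library gave 8244 to 9352 genes called between tissues, 3 to 361 for stress in the pituitary, 5 to 41 for stress in the adrenal cortex and 14 to 45 for breed in the adrenal cortex. For stress in the pituitary a pseudocount of 0.1 gave 2 calls, edgeR 0 (770 at an unadjusted p under 0.05) and DESeq2 62. For stress in the adrenal cortex the pseudocount of 0.1 and the lack of a filter gave 0 (480 and 653 at an unadjusted p under 0.05), edgeR 0 (499) and DESeq2 12. For breed in the adrenal cortex the lack of a filter gave 4, edgeR 0 (1109 at an unadjusted p under 0.05) and DESeq2 103. With a pseudocount of 0.1 the genes past 2-fold numbered 801 for breed in the unexposed pituitary, 548 for stress in the Beagle pituitary, 682 for breed in the stressed adrenal cortex and 450 for stress in the Chinese Field Dog adrenal cortex. The 33 genes 2-fold lower in the Chinese Field Dog pituitary under both exposures became 69 with that pseudocount, 351 without the unexposed pair and 200 without the stressed pair. By replicate number, no paired analysis was possible because each group has 1 library and all share a single number. Pairing tissues instead by their breed and exposure, which the labels do not tie to shared dogs, 8770 genes were called between tissues and no member changed its call. The main limits are the 2 residual degrees of freedom, the 1 to 16 reads behind GDF15, the forebrain markers in 1 pituitary library and the GH1 value of 0 in another.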
